A study of Mus musculus with 32 samples.

Results

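Nuclear receptors of the liver that sense drugs, bile acids, oxysterols and fatty acids were followed in the livers of mice fed a diet that is used to induce steatohepatitis. The 10 genes were chosen by symbol: Nr1i2, Nr1i3, Rxra, Nr1h4, Nr0b2, Ppara, Hnf4a, Nr1h3 and Nr5a2, which encode 9 nuclear receptors, and Por, which encodes the electron donor of microsomal cytochrome P450 enzymes. All 10 were found among the 41585 gene entries of both deposited count tables, and all 10 passed the filter on low counts in both sexes. RNA-seq had been run on livers of WT and Cyp2b-null C57BL/6 mice fed a normal chow diet (ND) or a high-fat diet made up from L-amino acids, without choline and low in methionine (CDAHFD). The mice were 10 weeks old at the start and were fed for 8 weeks, and the 8 treatment groups (2 genotypes, 2 diets, 2 sexes) each had 4 libraries, 32 in all. Cyp2b-null mice carry a CRISPR/Cas9 deletion of Cyp2b9, Cyp2b10 and Cyp2b13. The WT mice were bought in at a younger age and the Cyp2b-null mice came from the line made by gene editing, so genotype and source cannot be told apart. The labels do not tie libraries to named mice, so p-values measure the spread between these samples.

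Several of these receptors work as ligand-switched transcription factors. CAR (Nr1i3) and PXR (Nr1i2) answer foreign compounds and bile acids and switch on P450s, transferases and transporters, among them the Cyp2b genes deleted here. FXR (Nr1h4) is the bile acid receptor, and its target SHP (Nr0b2), which lacks a DNA-binding domain, holds back bile acid synthesis. PPAR alpha (Ppara) drives fatty acid oxidation, and LXR alpha (Nr1h3) drives sterol efflux and fatty acid synthesis. All of these except SHP bind DNA as partners of RXR alpha (Rxra), whereas HNF4 alpha (Hnf4a) binds as a homodimer and LRH-1 (Nr5a2) as a monomer, and both help to maintain hepatocyte genes.

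The libraries held 2906411 to 10166959 counts on genes. The deleted genes were checked first. Cyp2b9 CPM, the count scaled by TMM to an equal library size, was 611, 524, 594 and 608 in ND-fed WT females and 1.21, 1.59, 1.92 and 0.837 in ND-fed Cyp2b-null females. In ND-fed males, where WT Cyp2b9 was 0, 1.16, 0.549 and 3.28 CPM, Cyp2b10 separated the genotypes, at 6.07, 14.7, 13.3 and 10.9 CPM in WT and 1, 0.228, 0.211 and 0.443 CPM in Cyp2b-null libraries. The 15 hepatocyte markers were present in every group, and none of them was at 0 in all libraries.

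Every one of the 10 genes was well counted, with at least 30 counts in each library, the least being Nr0b2. Per kilobase of exon, which allows genes to be compared with each other, Hnf4a had the highest mean level over the 32 libraries, at 138 CPM per kilobase, and Nr5a2 the lowest, at 11.1. Por at 82.9, Rxra at 82.2 and Ppara at 79.0 followed Hnf4a, and then came Nr1h3 at 47.7, Nr1h4 at 44.3, Nr1i2 at 30.1, Nr0b2 at 25.9 and Nr1i3 at 21.0 CPM per kilobase. Per kilobase of the longest transcript, Por at 126.5, Rxra at 91.6 and Ppara at 88.8 kept their order, though Por stood further above Rxra. Nr1i3 at 31.1 came above Nr1i2 at 30.1 and Nr0b2 at 25.9, so the place of Nr1i3 depends on the length used. Neighbors in the order per kilobase of exon were often not separable. In ND-fed WT females, the level of Hnf4a was 166 ± 47.3 CPM per kilobase (SD, n = 4) and that of Por 121 ± 32.8, and their libraries overlapped. By exon length, from Rxra through Ppara, Nr0b2, Nr1h4 and Nr1h3 to Nr1i2 each gene overlapped the next. Libraries did not overlap between Por and Rxra, between Nr1i2 and Nr1i3 at 31.2 ± 2.87 CPM per kilobase, and between Nr1i3 and Nr5a2 at 12.2 ± 1.61. The step between Nr1i2 and Nr1i3 holds for exon length only, whereas those between Por and Rxra and between Nr1i3 and Nr5a2 hold for both lengths. The level of Nr1i3 is also uncertain because 74.9% of its exon bases lie in exons of another gene, as described below. ND-fed WT males had another order. There, Por was in place 4 at 56.9 ± 13.6 CPM per kilobase, below Rxra at 89.4 ± 7.23 and Ppara at 80.6 ± 6.19, and Nr1i3 was last at 15.1 ± 4.82, overlapping Nr5a2 at 15.1 ± 2.35. The largest range between libraries was that of Nr0b2, whose highest library was 12.6 times its lowest, and the smallest was that of Rxra, at 1.70 times.

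**Figure D1:**
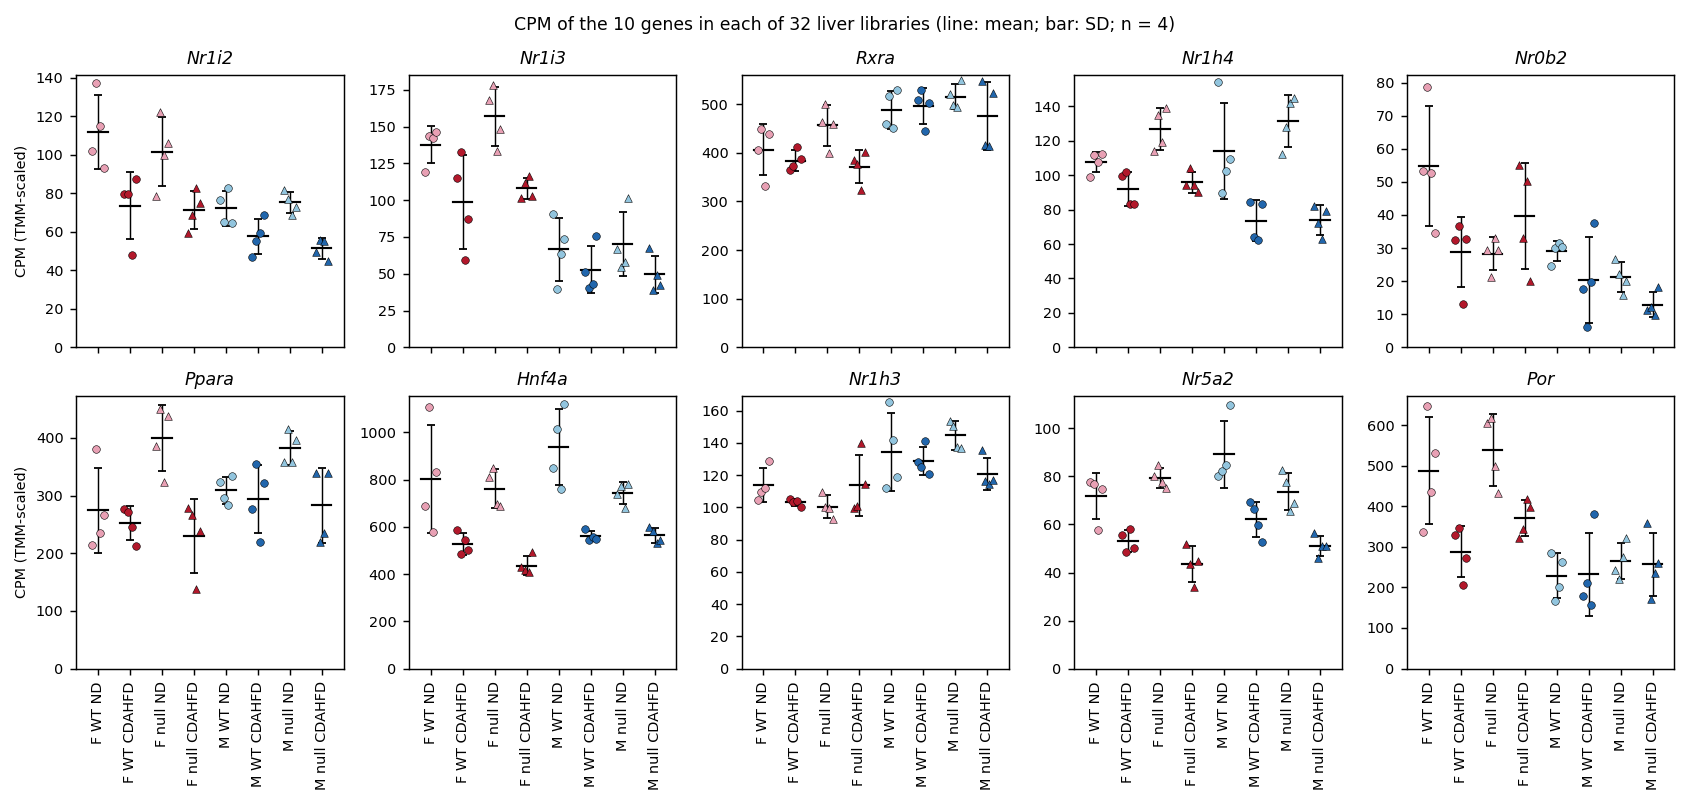
TMM-scaled CPM (vertical axes, from 0) of each gene in the 32 libraries, by sex (F, M), genotype (WT, null) and diet; each point is 1 library, the line is the group mean and the bar its SD (n = 4). Hnf4a and Nr5a2 were lower in every CDAHFD-fed group mean than in its ND-fed counterpart on this TMM scale (5 of these 8 differences turn on a scale set by hepatocyte markers), and Nr1i3 and Por stood lower in males than in females on ND.

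The first comparison was that of the diets. On CDAHFD, Hnf4a and Nr5a2 were called lower than on ND in all 4 pairs of groups, Nr1i2 and Nr1h4 in 3, Ppara and Por in 2, and Nr1i3 and Nr0b2 in 1, and Rxra and Nr1h3 in none. No gene of the 10 was called higher under the TMM scaling. In WT females, 5 of the 10 genes were called lower, where 24.1% of the 13226 genes tested were called and 10.2% were called lower. Cyp2b-null females had 7 of 10 called lower (30.8% of all genes called, 13.9% called lower), WT males 3 of 10 (33% of 13460 genes called, 15% called lower) and Cyp2b-null males 5 of 10 (37.4% called, 17.1% called lower). The median log2 fold change of the 10 genes was -0.43 in WT females, -0.50 in Cyp2b-null females, -0.33 in WT males and -0.47 in Cyp2b-null males, beside medians of all genes tested of 0.00, 0.03, -0.02 and -0.01. Called means an adjusted p-value under 0.05 in edgeR's quasi-likelihood test, with Benjamini-Hochberg adjustment over all genes tested, which applies to every adjusted p given here.

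The direction of these values depended on the scale. When counts were scaled to the hepatocyte markers in place of TMM factors, the median of all genes moved to 0.72, 0.56, 0.56 and 0.62 in WT females, Cyp2b-null females, WT males and Cyp2b-null males, and only 2, 3, 2 and 2 of the 10 genes kept a negative log2 fold change. In WT females, 1838 genes were called higher and 1355 lower under TMM, and 8786 higher and 227 lower on the hepatocyte marker scale. Relative to the median of all genes, 10, 8, 8 and 10 of the genes lay below it under TMM, and the same numbers did so with RLE factors, library size only and the hepatocyte markers. A change of scale shifts all genes by nearly the same amount, so this agreement was largely fixed in advance and is no separate check. Because the sign depended on the scale, values and directions below belong to the scale named with them, and to TMM where none is named. They are not taken relative to the median of all genes. On the hepatocyte marker scale a gene called higher can lie below that median, as Nr1h4 did in WT females, at 0.53 against 0.72. Called values that turn on the hepatocyte marker scale are given with their values there. Most of the 15 hepatocyte markers were themselves lower on CDAHFD. Their summed CPM was 161280 to 228350 in ND-fed and 114320 to 134280 in CDAHFD-fed WT females, and 143270 to 160890 and 86426 to 141120 in WT males. In each, 12 of 15 were called lower, and 0 were called higher in WT females and 1 in WT males. The hepatocyte marker scale sets their common change to about 0, with medians of -0.05 in WT females and -0.08 in WT males. A fall that other hepatocyte genes share with them is thus taken out there in advance, so that scale is no independent check. The 7 macrophage markers summed to 279.8 to 418 and 682 to 838 CPM in ND-fed and CDAHFD-fed WT females, and the 7 stellate cell markers to 56.2 to 109 and 344 to 512. In males, the macrophage sums were 124 to 231 and 521 to 1067 CPM, and the stellate cell sums 64.0 to 77.6 and 342 to 559. The part of this shift between cell types in the values of the 10 genes was not tested, and in whole liver, fewer cells of a type and less RNA per cell cannot be told apart.

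**Figure D2:**
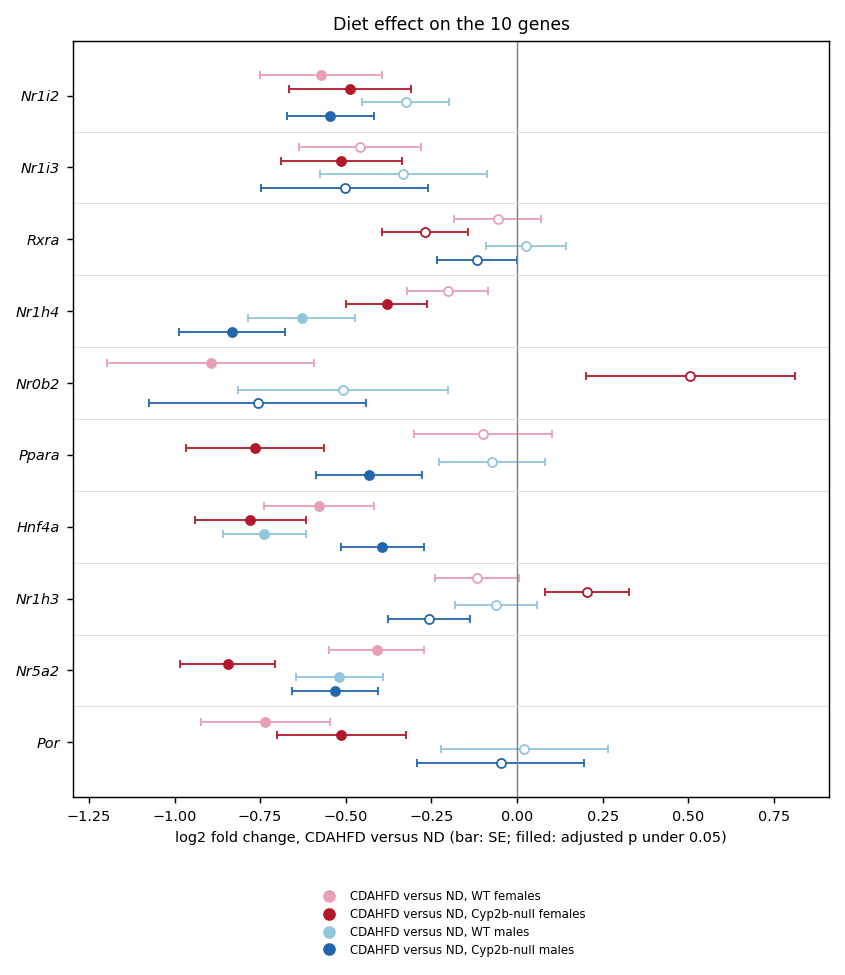
Log2 fold change of each gene on CDAHFD versus ND (horizontal axis; bar: SE) in 4 comparisons of 4 against 4 libraries; filled points passed an adjusted p of 0.05. All filled points lie to the left of 0 under the TMM scaling plotted here, and for 12 of the 20 they lie to its right when counts are scaled to hepatocyte markers.

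Hnf4a (chr2:163506811-163572907, plus strand, GRCm38.p6) encodes HNF4 alpha, a master regulator of hepatocyte genes. Its CPM was 689, 1108, 579.8 and 831 in ND-fed and 585, 484, 543 and 501 in CDAHFD-fed WT females. The Cyp2b-null females had 812, 850.1, 699 and 687 CPM on ND and 428, 417, 407 and 493 CPM on CDAHFD. Only in WT females did the diets overlap, through ND-fed replicate 3 and CDAHFD-fed replicate 1. In males, Hnf4a was 850.5, 1015, 761 and 1119 CPM in ND-fed WT, 592, 544, 556 and 548 in CDAHFD-fed WT, 739, 772, 679 and 779.6 in ND-fed Cyp2b-null and 599, 581, 534 and 543 in CDAHFD-fed Cyp2b-null libraries. All 8 ND-fed male libraries were above all 8 CDAHFD-fed ones. The log2 fold changes were -0.58 ± 0.16 (SE, adjusted p = 0.0114) in WT females, -0.78 ± 0.16 (SE, adjusted p = 0.00102) in Cyp2b-null females, -0.74 ± 0.12 (SE, adjusted p = 7.13e-05) in WT males and -0.39 ± 0.12 (SE, adjusted p = 0.0134) in Cyp2b-null males, all of which passed the test on the TMM scale, but they were 0.15, -0.22, -0.16 and 0.22 on the hepatocyte marker scale. The call in WT females was lost without ND-fed replicate 2, the highest library, with an adjusted p of 0.0606.

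Nr5a2 (chr1:136842562-136960448, minus strand) encodes LRH-1, an activator of bile acid synthesis genes. Its CPM was 77.5, 76.9, 57.6 and 75.0 in ND-fed WT females and 55.6, 48.6, 58.2 and 50.3 in CDAHFD-fed WT females, where ND-fed replicate 3 lay within the CDAHFD range. In Cyp2b-null females it was 80.1, 84.7, 77.6 and 75.3 CPM on ND and 51.8, 43.5, 33.9 and 44.8 on CDAHFD, with no overlap. WT males had 80.2, 82.1, 84.8 and 109.8 CPM on ND and 69.2, 66.6, 60.0 and 52.7 on CDAHFD, and Cyp2b-null males 82.5, 77.7, 65.7 and 68.9 and 56.5, 45.9, 50.9 and 50.8, again without overlap. Nr5a2 fell in all 4 pairs on the TMM scale, with log2 fold changes of -0.41 ± 0.14 (SE, adjusted p = 0.0348) in WT females, -0.84 ± 0.14 (SE, adjusted p = 0.000108) in Cyp2b-null females, -0.52 ± 0.13 (SE, adjusted p = 0.00295) in WT males and -0.53 ± 0.13 (SE, adjusted p = 0.00212) in Cyp2b-null males, and stood at 0.31, -0.29, 0.06 and 0.09 on the hepatocyte marker scale. The call in WT females was marginal. It was lost with the low-count filter left off (adjusted p = 0.0598), and also without ND-fed replicate 1, 2 or 4 or without CDAHFD-fed replicate 1, 2 or 4, with adjusted p-values up to 0.0995.

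The promoters of both genes, which were called lower in every diet comparison, are shown beside that of Rxra, which was called lower in none, and that of Nr0b2, the most variable gene. Each is the 250 bases before a RefSeq start (GRCm38.p6), written 5′ to 3′ on the strand of the gene, with matches to the motifs below in capitals: chr1:136960449-136960698, minus strand for the upstream of 2 Nr5a2 starts, chr2:163546905-163547154, plus strand for the downstream of 2 Hnf4a starts, chr2:27676951-27677200, plus strand for the upstream of 2 Rxra starts, and chr4:133553126-133553375, plus strand for Nr0b2.
Nr5a2: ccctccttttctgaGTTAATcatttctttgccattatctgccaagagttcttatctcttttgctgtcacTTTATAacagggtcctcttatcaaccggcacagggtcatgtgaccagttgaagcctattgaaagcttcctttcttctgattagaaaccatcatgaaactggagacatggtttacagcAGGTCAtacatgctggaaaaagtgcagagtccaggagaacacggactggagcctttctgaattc
Hnf4a: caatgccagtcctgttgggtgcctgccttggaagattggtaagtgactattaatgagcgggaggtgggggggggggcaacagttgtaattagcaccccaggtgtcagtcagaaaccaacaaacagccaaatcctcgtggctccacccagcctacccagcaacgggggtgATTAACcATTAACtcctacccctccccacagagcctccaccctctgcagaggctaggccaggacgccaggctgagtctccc
Rxra: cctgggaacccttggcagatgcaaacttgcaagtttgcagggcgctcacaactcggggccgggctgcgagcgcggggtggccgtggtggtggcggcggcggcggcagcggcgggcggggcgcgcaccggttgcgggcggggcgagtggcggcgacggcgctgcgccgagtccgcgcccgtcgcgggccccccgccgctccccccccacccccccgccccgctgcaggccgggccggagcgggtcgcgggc
Nr0b2: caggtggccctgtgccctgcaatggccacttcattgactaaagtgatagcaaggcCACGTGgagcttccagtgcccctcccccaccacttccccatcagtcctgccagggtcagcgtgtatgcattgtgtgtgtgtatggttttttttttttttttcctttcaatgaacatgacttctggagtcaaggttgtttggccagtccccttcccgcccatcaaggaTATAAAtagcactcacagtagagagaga
In all, 8 motifs were searched on both strands of the 14 RefSeq promoters of the 10 genes, each 300 bases long with 50 bases after the start. The receptor half-site AGGTCA occurs in 16.3% of all 32851 promoters, and the HNF1 half-site GTTAAT in 7.1%. The Nr5a2 promoter shown holds both, AGGTCA 64 to 59 bases before the start and GTTAAT 236 to 231 bases before it. The letters TATAAA (13.6% of promoters) also occur there on the opposite strand. The Hnf4a promoter shown holds GTTAAT on the opposite strand at both -81 to -76 and -74 to -69. Nr0b2 has TATAAA at -28 to -23 and the E-box CACGTG (7.15% of promoters) at -195 to -190. The Rxra promoter shown holds none of these motifs and is far richer in CpG, with 55 CpG in 300 bases against 2 in Nr5a2, 4 in Hnf4a and 3 in Nr0b2. The promoters of Ppara and Por had 30 and 27 CpG. This contrast rests on the starts shown: the downstream Rxra promoter holds 2 AGGTCA and 1 CpG, and the other Nr5a2 and Hnf4a promoters hold no motif and 7 and 4 CpG. The 14 promoters do not cover every start. The spans of several genes, among them Rxra, Nr1h4, Nr1h3 and Por, begin before the first start used here, and those further starts were not searched. None of the 14 promoters held CAAGGTCA, an LRH-1 site that contains AGGTCA (1.56% of promoters), CAAAGTCCA, an HNF4 site (0.475%), or an inverted or a direct repeat of AGGTCA spaced by 1 base (0.0274% and 0.0396%). These matches are letters in a window and say nothing of binding.

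Of the xenobiotic sensors, Nr1i2 (PXR, chr16:38248349-38294849, minus strand) was 102, 137, 115 and 93.2 CPM in ND-fed and 79.7, 79.3, 48.0 and 87.3 CPM in CDAHFD-fed WT females. These groups did not overlap, which held for 1 of the 10 genes in this comparison and for 12.2% of all genes in the lower direction. It was 78.3, 122, 99.8 and 106 CPM in ND-fed and 59.1, 68.8, 82.5 and 74.7 CPM in CDAHFD-fed Cyp2b-null females, where the ranges overlapped. In males the values were 76.7, 64.9, 82.6 and 64.5 CPM in ND-fed WT, 46.8, 55.4, 59.4 and 68.5 in CDAHFD-fed WT, 81.8, 77.0, 68.9 and 72.9 in ND-fed Cyp2b-null and 49.4, 55.7, 55.3 and 44.7 in CDAHFD-fed Cyp2b-null libraries, and the Cyp2b-null diets did not overlap. Nr1i2 was called lower in WT females at -0.57 ± 0.18 (SE, adjusted p = 0.0232), in Cyp2b-null females at -0.49 ± 0.18 (SE, adjusted p = 0.0429) and in Cyp2b-null males at -0.55 ± 0.13 (SE, adjusted p = 0.00178), but these were 0.15, 0.04 and 0.09 on the hepatocyte marker scale. In WT males it was -0.32 ± 0.13 (SE, adjusted p = 0.0550), and was called without ND-fed replicate 2 or 4 or CDAHFD-fed replicate 4 (lowest adjusted p = 0.0216), and it was 0.28 on the hepatocyte marker scale. The call in WT females was lost without ND-fed replicate 2 or CDAHFD-fed replicate 3, and that in Cyp2b-null females without ND-fed replicate 2, 3 or 4 or CDAHFD-fed replicate 1, 2 or 4.

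Nr1i3 (CAR, chr1:171213934-171218845, plus strand) was 119, 143, 142 and 146 CPM in ND-fed WT females and 115, 132, 59.4 and 87.5 in CDAHFD-fed WT females. The CDAHFD-fed WT females were spread widely, from within the ND range down to replicate 3, which was also the lowest of its group for Nr1i2, Nr0b2 and Por. In Cyp2b-null females Nr1i3 was 168, 178, 133 and 149 CPM on ND and 101, 112, 116 and 103 CPM on CDAHFD, without overlap. Male values were 90.3, 39.4, 63.3 and 73.3 CPM in ND-fed WT, 51.2, 40.6, 43.3 and 75.8 in CDAHFD-fed WT, 66.7, 54.7, 58.2 and 102 in ND-fed Cyp2b-null and 67.5, 39.0, 49.3 and 42.2 in CDAHFD-fed Cyp2b-null libraries, and both pairs overlapped. Nr1i3 was called lower in Cyp2b-null females, at -0.51 ± 0.18 (SE, adjusted p = 0.0322), but was 0.02 on the hepatocyte marker scale. That call was lost without ND-fed replicate 1 or 2 or CDAHFD-fed replicate 1, 2 or 4. The other values were -0.46 ± 0.18 (SE, adjusted p = 0.0660) in WT females, -0.33 ± 0.24 (SE, adjusted p = 0.319) in WT males and -0.50 ± 0.24 (SE, adjusted p = 0.112) in Cyp2b-null males, and on the hepatocyte marker scale 0.27, 0.26 and 0.12. With the low-count filter left off, the WT female and Cyp2b-null male values were called (adjusted p = 0.0253 and 0.00384), as they were without CDAHFD-fed WT female replicate 2 and without CDAHFD-fed Cyp2b-null male replicate 1 (adjusted p = 0.0138 and 0.0434). The diet effects in the sexes or genotypes were not shown to differ, since no test of the difference called Nr1i3.

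The counts of Nr1i3 carry an uncertainty that the other genes lack. Of its 4414 exon bases, 3304 (74.9%) also lie in exons of Tomm40l on the opposite strand, a gene of the mitochondrial import machinery, and the strand setting of the counting is not given in the sources used here. Without strand, reads from the 2 genes cannot be told apart. Tomm40l was 117, 139, 132 and 128 CPM in ND-fed WT females and 66.9, 43.7, 59.0 and 40.9 CPM in ND-fed WT males, a range close to that of Nr1i3 in the same libraries. Of the other 9 genes, 8 shared no exon base with another gene, and Nr1h3 shared 1.35% of its bases with Gm13783.

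**Figure D3:**
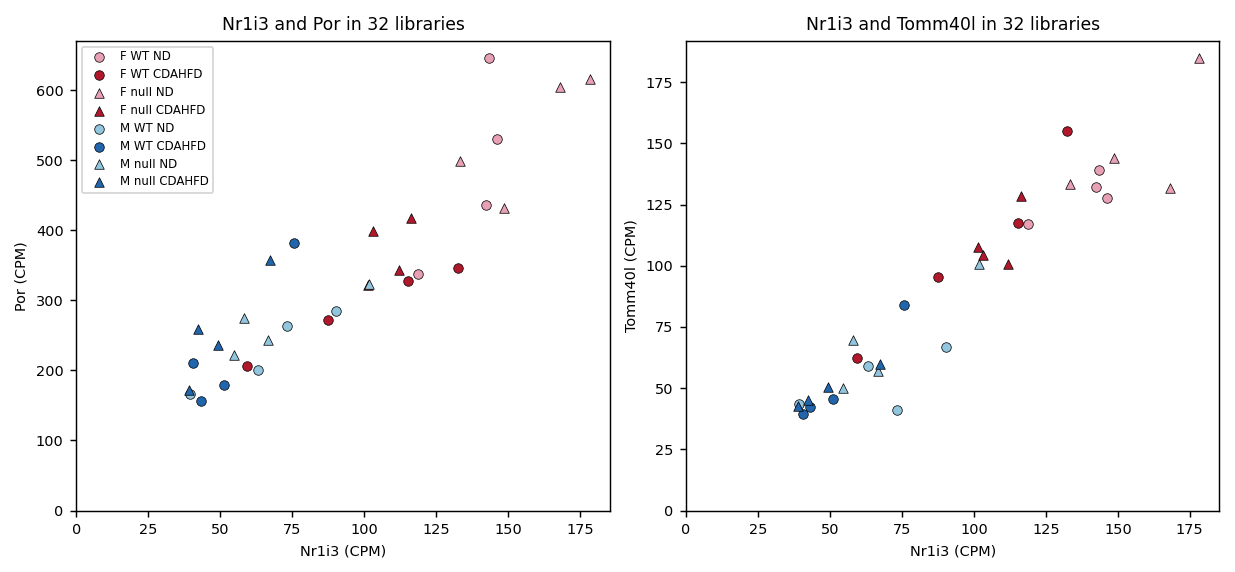
CPM of Por (left) and of Tomm40l (right) against that of Nr1i3 in the 32 libraries; each point is 1 library, colored by sex and diet, with circles for WT and triangles for Cyp2b-null. Both genes ran along with Nr1i3 from the male to the female libraries, and Tomm40l shares exon bases with it.

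Rxra (chr2:27676445-27763319, plus strand), the common partner, was among the steadiest genes. Its CPM was 406 ± 52.6 (SD, n = 4) in ND-fed and 384 ± 21.4 in CDAHFD-fed WT females, and 456 ± 41.6 and 372 ± 33.3 in Cyp2b-null females. In males it was 488 ± 39.5 CPM in ND-fed WT, 496 ± 36.7 in CDAHFD-fed WT, 516 ± 25.7 in ND-fed Cyp2b-null and 475 ± 70.0 in CDAHFD-fed Cyp2b-null libraries. The groups overlapped in all 4 diet comparisons, and the log2 fold changes were -0.06 ± 0.13, -0.27 ± 0.13, 0.02 ± 0.12 and -0.12 ± 0.12 (SE) in WT females, Cyp2b-null females, WT males and Cyp2b-null males, none called. When scaled to hepatocyte markers, Rxra was called higher in WT females at 0.67, in WT males at 0.60 and in Cyp2b-null males at 0.49.

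The bile acid receptor gene Nr1h4 (FXR, chr10:89454234-89533645, minus strand) was called lower on CDAHFD in both male pairs under TMM. It was 154, 89.5, 103 and 109.6 CPM in ND-fed and 84.4, 64.3, 62.5 and 83.1 CPM in CDAHFD-fed WT males. Cyp2b-null males had 112, 128, 142 and 145 CPM on ND and 81.9, 71.9, 62.8 and 79.1 CPM on CDAHFD. Neither male pair overlapped. In females it was 99.2, 112, 107 and 112 CPM in ND-fed WT, 99.8, 102, 83.3 and 83.3 in CDAHFD-fed WT, 114, 135, 119 and 139 in ND-fed Cyp2b-null and 94.1, 104, 94.6 and 90.2 in CDAHFD-fed Cyp2b-null libraries, and the WT pair overlapped. Nr1h4 was called lower in WT males at -0.63 ± 0.16 (SE, adjusted p = 0.00351), in Cyp2b-null males at -0.83 ± 0.16 (SE, adjusted p = 0.000224) and in Cyp2b-null females at -0.38 ± 0.12 (SE, adjusted p = 0.0182), with hepatocyte marker values of -0.06, -0.22 and 0.15. The WT female value was -0.20 ± 0.12 (SE, adjusted p = 0.238), and on the hepatocyte marker scale it was called higher, at 0.53, the largest of the 4 values there. The call in Cyp2b-null females was lost without ND-fed replicate 2 or 4. The diet effect in males minus that in females was -0.40 ± 0.19 (SE, adjusted p = 0.473) in WT and -0.43 ± 0.19 (SE, adjusted p = 0.219) in Cyp2b-null mice, neither of which was called.

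Nr0b2 (SHP, chr4:133553376-133556686, plus strand) is a target of FXR that represses Cyp7a1, the rate-limiting enzyme of bile acid synthesis. Its CPM was 53.3, 78.8, 52.5 and 34.5 in ND-fed WT females and 32.4, 36.6, 13.2 and 32.6 in CDAHFD-fed WT females. In Cyp2b-null females it was 29.3, 21.2, 33.0 and 29.4 on ND and 55.1, 33.0, 50.3 and 20.1 on CDAHFD. The ND-fed WT females were thus above all 4 ND-fed Cyp2b-null females, and both diet pairs overlapped. In males, Nr0b2 was 24.6, 30.1, 31.6 and 30.2 CPM in ND-fed WT, 17.6, 6.25, 19.8 and 37.6 in CDAHFD-fed WT, 26.8, 22.1, 15.8 and 20.2 in ND-fed Cyp2b-null and 11.3, 12.2, 9.83 and 18.2 in CDAHFD-fed Cyp2b-null libraries. Nr0b2 was called lower on CDAHFD in WT females, at -0.89 ± 0.30 (SE, adjusted p = 0.0352). That call was lost without ND-fed replicate 1, 2 or 3 or CDAHFD-fed replicate 3 or 4, with adjusted p-values up to 0.130. The other values were 0.51 ± 0.31 (SE, adjusted p = 0.221) in Cyp2b-null females, -0.51 ± 0.31 (SE, adjusted p = 0.217) in WT males and -0.76 ± 0.32 (SE, adjusted p = 0.0671) in Cyp2b-null males. Both male values were called without CDAHFD-fed replicate 4 of the genotype, at -0.97 (adjusted p = 0.0111) in WT and -0.95 (adjusted p = 0.0334) in Cyp2b-null males, and with the low-count filter left off (adjusted p = 0.0196 and 0.000260). On the hepatocyte marker scale the Cyp2b-null female value was called higher, at 1.01, and the values in WT females, WT males and Cyp2b-null males were -0.18, 0.08 and -0.15.

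Of the lipid receptors, Ppara (chr15:85734910-85806851, plus strand) was 386, 449, 324 and 438 CPM in ND-fed and 279, 266, 138 and 239 CPM in CDAHFD-fed Cyp2b-null females, and 359, 416, 358 and 397 and 339, 219.9, 234 and 339.5 CPM in the corresponding males. Neither pair overlapped. In WT mice it was 215, 380.2, 235 and 266 CPM in ND-fed and 277, 271, 245 and 213 in CDAHFD-fed females, and 324, 295, 283 and 334 and 277, 355, 219 and 322 in males, and both pairs overlapped. Ppara was called lower in Cyp2b-null females at -0.77 ± 0.20 (SE, adjusted p = 0.00676) and in Cyp2b-null males at -0.43 ± 0.15 (SE, adjusted p = 0.0326), with hepatocyte marker values of -0.22 and 0.17. The WT values were -0.10 ± 0.20 (SE, adjusted p = 0.772) in females and -0.07 ± 0.15 (SE, adjusted p = 0.756) in males, both of which were called higher on the hepatocyte marker scale, at 0.63 and 0.50. The diet effect in Cyp2b-null minus that in WT mice was -0.67 ± 0.28 (SE, adjusted p = 0.760) in females and -0.36 ± 0.22 (SE, adjusted p = 0.860) in males, so a difference between the genotypes was not shown. The call in Cyp2b-null males was lost without ND-fed replicate 2 or 4 or CDAHFD-fed replicate 2 or 3.

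Nr1h3 (LXR alpha, chr2:91184061-91202829, minus strand) was called in no diet comparison. Its group means ran from 101 ± 6.97 CPM (SD, n = 4) in ND-fed Cyp2b-null females to 145 ± 8.78 CPM in ND-fed Cyp2b-null males. The diet log2 fold changes were -0.12 ± 0.12 (SE) in WT females, 0.20 ± 0.12 in Cyp2b-null females, -0.06 ± 0.12 in WT males and -0.26 ± 0.12 in Cyp2b-null males. On the hepatocyte marker scale Nr1h3 was called higher in 3 of them, at 0.62, 0.74 and 0.52, and on library size only in Cyp2b-null females and WT males, at 0.45 and 0.34.

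Por (chr5:135670040-135735326, plus strand) passes electrons from NADPH to microsomal P450 enzymes. It was 337, 646, 436 and 531 CPM in ND-fed and 328, 347, 207 and 272 CPM in CDAHFD-fed WT females, and 604, 617, 499.6 and 432 and 322, 344, 417 and 399 CPM in Cyp2b-null females. The Cyp2b-null female diets did not overlap. Male values were 285, 166, 201 and 264 CPM in ND-fed WT, 179, 211, 156 and 381 in CDAHFD-fed WT, 244, 222, 274 and 323 in ND-fed Cyp2b-null and 358, 173, 236 and 259.6 in CDAHFD-fed Cyp2b-null libraries, with overlap in both pairs. Por was called lower in WT females at -0.73 ± 0.19 (SE, adjusted p = 0.00642) and in Cyp2b-null females at -0.51 ± 0.19 (SE, adjusted p = 0.0430), with hepatocyte marker values of -0.0013 and 0.04, and was 0.02 ± 0.24 (SE, adjusted p = 0.957) in WT males and -0.05 ± 0.24 (SE, adjusted p = 0.895) in Cyp2b-null males. Por was called higher in both on the hepatocyte marker scale, at 0.62 in WT and 0.57 in Cyp2b-null males. The difference between the sexes was not called, at 0.78 ± 0.33 (SE, adjusted p = 0.370) in WT and 0.49 ± 0.33 (SE, adjusted p = 0.433) in Cyp2b-null mice. The call in Cyp2b-null females was lost without ND-fed replicate 1, 2 or 3 or CDAHFD-fed replicate 1, 2 or 4.

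Over the 10 genes, the ND-fed and CDAHFD-fed libraries did not overlap for 6 in Cyp2b-null females, 3 in WT males and 6 in Cyp2b-null males, where 15.4%, 12.6% and 17.1% of all genes did not overlap in the lower direction.

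The next comparison asked whether loss of the Cyp2b genes changed the receptors. None of the 10 genes was called between genotypes by edgeR in any of the 4 comparisons, where 0.0756% of genes were called in ND-fed females, 0.0227% in CDAHFD-fed females, 0.0371% in ND-fed males and 0.0297% in CDAHFD-fed males. DESeq2 called 0 of them as well, and at an unadjusted p under 0.05 there were 2, 1, 2 and 2 genes, beside 5.75%, 5.83%, 8.26% and 3.62% of all genes. The largest difference was that of Nr0b2 in ND-fed females, -0.95 ± 0.31 (SE, adjusted p = 0.599), with an unadjusted p of 0.00558. With the low-count filter left off it was -0.92 with an SE of 0.18 and an adjusted p of 0.000116, and the cause of this change was not tested. The other Nr0b2 values were 0.45 ± 0.30 (SE, adjusted p = 0.832) in CDAHFD-fed females, -0.44 ± 0.31 (SE, adjusted p = 0.745) in ND-fed males and -0.69 ± 0.32 (SE, adjusted p = 1) in CDAHFD-fed males. Ppara was 0.54 ± 0.20 (SE, adjusted p = 0.771) in ND-fed females and 0.31 ± 0.15 (SE, adjusted p = 0.628) in ND-fed males, where the libraries did not overlap. Groups did not overlap for 2 of the 10 genes in ND-fed females (3.55% of all genes) and for 1 in ND-fed males (3.86%). Hnf4a was -0.33 ± 0.12 (SE, adjusted p = 0.431) in ND-fed males. For Nr1i3, the receptor that switches on Cyp2b10, the genotype values were 0.19 ± 0.18 (SE, adjusted p = 0.959) in ND-fed females and 0.08 ± 0.24 (SE, adjusted p = 0.967) in ND-fed males.

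The diet effect did not differ between genotypes for any of the 10 genes at an adjusted p under 0.05, where edgeR called 0% of all genes in females and 0.00743% in males. DESeq2 also called 0 of the 10, and 3 genes in females (6.28% of all genes) and 0 in males (6.07%) had an unadjusted p under 0.05. Nr0b2 in females had the largest such difference, a diet effect in Cyp2b-null minus that in WT mice of 1.40 ± 0.43 (SE, adjusted p = 0.760), with an unadjusted p of 0.00378 and an adjusted p of 7.92e-05 with the low-count filter left off. The other values with an unadjusted p under 0.05 were those of Ppara, given above, and Nr5a2 in females, -0.44 ± 0.20 (SE, adjusted p = 0.760).

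**Figure D4:**
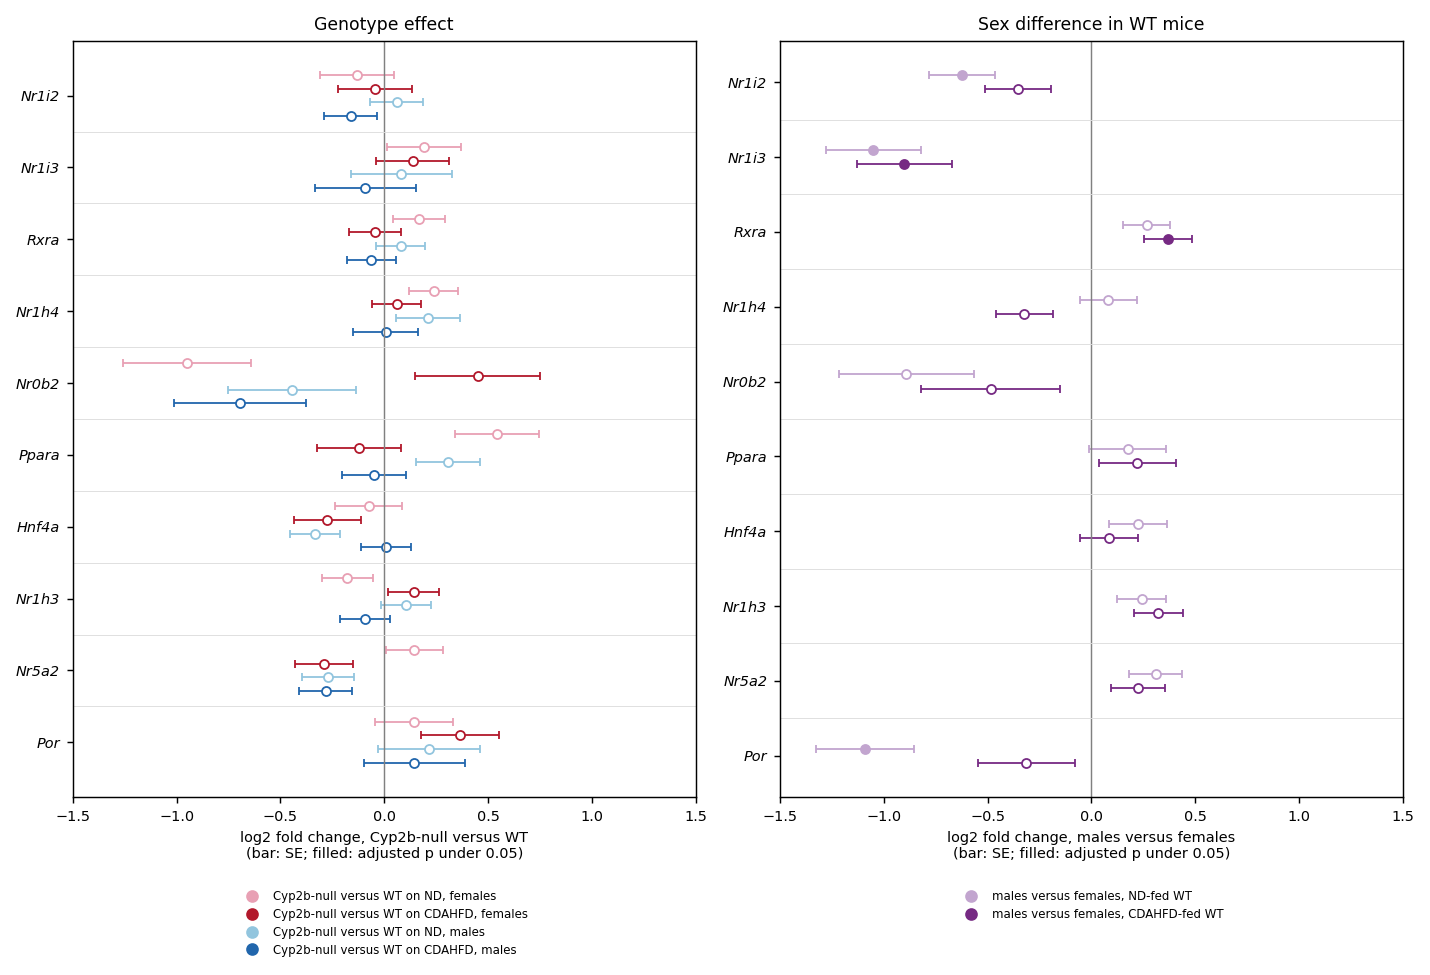
Log2 fold change (bar: SE) of each gene in Cyp2b-null versus WT mice (left, 4 comparisons) and in males versus females among WT mice (right, 2 comparisons), each of 4 against 4 libraries; filled points passed an adjusted p of 0.05. No genotype point is filled, and the filled sex points are Nr1i2, Nr1i3 and Por on ND and Nr1i3 and Rxra on CDAHFD.

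The sexes differed in the xenobiotic receptors and Por. In ND-fed WT mice, Por, Nr1i3 and Nr1i2 were lower in males, 3 of the 10 genes, where 17.8% of 14020 genes were called and 9.45% were called lower. The values were -1.09 ± 0.24 (SE, adjusted p = 0.00136) for Por, -1.05 ± 0.23 (SE, adjusted p = 0.00143) for Nr1i3 and -0.62 ± 0.16 (SE, adjusted p = 0.00568) for Nr1i2. For these genes every male library lay below every female one. Groups did not overlap for 6 of the 10 genes, as for 18% of all genes. Nr0b2 was -0.89 ± 0.32 (SE, adjusted p = 0.0526), and its adjusted p was 0.0312 on library size only, 1.98e-05 without the low-count filter 0.0144 when the 2 groups were fitted alone and 0.0293 without female replicate 4. The other 6 genes had log2 differences of 0.08 to 0.31, none called, although Hnf4a was called at 0.42 without female replicate 2 (adjusted p = 0.0292). Tomm40l, which shares bases with Nr1i3, was -1.29 ± 0.23 (SE, adjusted p = 0.000152). On the hepatocyte marker scale Nr1i2 was -0.44 and no longer called, and Rxra, Nr1h3 and Nr5a2 were called higher in males, at 0.46, 0.46 and 0.50. Counts of females and males came in separate tables, and a difference in their preparation cannot be told apart from sex.

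In CDAHFD-fed WT mice, Nr1i3 was lower in males at -0.90 ± 0.23 (SE, adjusted p = 0.0102) and Rxra was higher at 0.37 ± 0.12 (SE, adjusted p = 0.0344), 2 of the 10 genes, where 11% of all genes were called. Rxra was also higher in every male library than in every female library, as was Nr1h3, and groups did not overlap for 17.5% of all genes. The Rxra call was lost on the hepatocyte marker scale, on library size only, without the low-count filter and with those 2 groups fitted alone, and without replicate 1, 2 or 4 of either sex. The Nr1i3 call was lost without female replicate 2 or male replicate 2. Por was -0.31 ± 0.23 (SE, adjusted p = 0.414) and Nr1i2 -0.35 ± 0.16 (SE, adjusted p = 0.145), the latter being called without female replicate 3 (adjusted p = 0.0260). No diet effect on the 10 genes differed between the sexes by edgeR or DESeq2, where 0.97% of all genes did in WT and 3.4% in Cyp2b-null mice, and 2 and 4 of the 10 had an unadjusted p under 0.05, as had 10.3% and 19.2% of all genes. With that filter left off, Por in WT (0.75, adjusted p = 0.0367) and Nr0b2 in Cyp2b-null mice (-1.25, adjusted p = 6.76e-05) were called. Macrophage markers moved with sex as well, 6 of 7 being called lower in ND-fed WT males, and their part in these values was not tested.

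Within groups, some of the genes moved together from library to library. After subtraction of the group means, log2 CPM of Nr1i3 and Por had a Pearson r of 0.81 over the 32 libraries, Rxra and Ppara 0.70, Nr1i3 and Nr1h4 0.67, Rxra and Hnf4a 0.62 and Rxra and Nr5a2 0.62. Nr1h4 and Nr1h3 had -0.44, and Nr1i2 and Nr5a2 -0.41. These points share libraries and depth and are a description. Group means were not subtracted for the rank correlations that follow, so these also hold the differences between diets and genotypes. By Spearman rank correlation over 16 female and 16 male libraries, among 12978 genes, the genes most like Nr1i3 were Herpud1 (0.90 in females, 0.80 in males), Por (0.89, 0.79) and Acot3 (0.83, 0.85). Those most like Nr1i2 were N4bp2l1 (0.91, 0.80), Cyp2c69 (0.89, 0.81) and Plekhb1 (0.76, 0.91), and those most like Nr1h4 were 0610031O16Rik (0.88, 0.96), Bbox1 (0.88, 0.96) and Rdh7 (0.89, 0.92).

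Target genes of the receptors were read from lists of known targets, on the TMM scale unless said otherwise, with values in the order WT females, Cyp2b-null females, WT males and Cyp2b-null males. The P450 genes among them have close paralogs, between which the counting could split reads. Of 21 targets of CAR and PXR outside the deleted genes, 10 were called lower and 3 higher on CDAHFD in WT females, 12 and 3 in Cyp2b-null females, 9 and 4 in WT males, and 11 and 4 in Cyp2b-null males. Their median log2 fold changes were -0.22, -0.49, -0.28 and -0.41, but on the hepatocyte marker scale 4, 6, 4 and 5 were called lower and 9, 7, 7 and 9 higher. Cyp2c29, a P450 induced through CAR, fell most among those named and was called lower on both scales, from 2044, 2056, 2469 and 2381 CPM in ND-fed to 122, 245, 128 and 209.8 CPM in CDAHFD-fed WT males, and had log2 fold changes of -2.09 ± 0.18, -1.98 ± 0.18, -3.66 ± 0.22 and -4.43 ± 0.23 (SE) in WT females, Cyp2b-null females, WT males and Cyp2b-null males. Cyp3a11, the main PXR target, was called lower in all 4 at -0.69 ± 0.18, -0.67 ± 0.18, -0.92 ± 0.17 and -1.53 ± 0.18, but on the hepatocyte marker scale in Cyp2b-null males alone, at -0.91, with 0.02 in WT females. Of the deleted genes, Cyp2b10 fell in WT females from 77.7, 72.7, 71.7 and 64.8 to 14.4, 7.08, 4.19 and 9.37 CPM. In WT males Cyp2b9 rose on both scales, from 0, 1.16, 0.549 and 3.28 CPM on ND to 69.0, 57.7, 13.8 and 47.6 CPM on CDAHFD.

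Bile acid genes were mixed. Of 7 tested FXR-induced targets, 3 were called lower and 2 higher in WT females, 2 and 1 in Cyp2b-null females, 3 and 2 in WT males, and 2 and 2 in Cyp2b-null males, whereas on the hepatocyte marker scale none was called lower and 4, 4, 4 and 3 higher. Their medians were -0.09, 0.37, 0.44 and -0.29. Abcb11, the bile salt export pump, fell in all 4 comparisons, at -0.97 ± 0.15, -0.73 ± 0.15, -0.74 ± 0.13 and -0.92 ± 0.13 (SE), and was between -0.31 and -0.17 without a call on the hepatocyte marker scale. The uptake carrier Slc10a1, which FXR and SHP repress, also fell in all 4, on both scales, at -1.68 ± 0.17, -1.34 ± 0.16, -1.68 ± 0.16 and -1.63 ± 0.16. Of the 3 targets that FXR and SHP repress, 1, 1, 2 and 2 were called lower and none higher, with medians of 0.16, -0.30, -0.98 and -1.39. Cyp7a1 was not called in any, at 0.16 ± 0.43, -0.30 ± 0.44, 0.37 ± 0.34 and -0.41 ± 0.34, but was called higher in WT females and WT males on the hepatocyte marker scale, at 0.91 and 0.85. Cyp8b1, the enzyme of cholic acid synthesis, was called lower in WT males at -0.98 and Cyp2b-null males at -1.39, was 0.44 and 0.53 in WT and Cyp2b-null females without a call, and was called higher in both on the hepatocyte marker scale, at 1.19 and 1.11, where WT males had -0.50 without a call and Cyp2b-null males -0.83 with one.

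Lipid targets moved in both directions. Of 15 tested PPAR alpha targets, 1 was called lower and 5 higher in WT females, 5 and 2 in Cyp2b-null females, 4 and 4 in WT males, and 5 and 2 in Cyp2b-null males, and on the hepatocyte marker scale 0 and 7, 0 and 5, 3 and 9, and 4 and 6. The medians were -0.18, -0.32, 0.08 and -0.39. Cpt1a, which admits fatty acids to mitochondria, rose on both scales in WT females at 0.61 ± 0.20, WT males at 0.62 ± 0.15 and Cyp2b-null males at 0.56 ± 0.15 (SE). Of 10 LXR targets, 5, 6, 5 and 4 were called lower and 1, 1, 2 and 3 higher, and on the hepatocyte marker scale 1, 1, 2 and 1 lower and 5, 3, 3 and 3 higher, with TMM medians of -0.40, -0.60, -0.47 and -0.38. The desaturase Scd1 showed the greatest fall, from 9815, 7274, 14555 and 21426 CPM in ND-fed to 142, 213, 135 and 177 CPM in CDAHFD-fed WT females, and the sterol exporter Abcg1 rose at 1.56 ± 0.20, 1.45 ± 0.19, 2.51 ± 0.24 and 2.17 ± 0.23. Both were called in all 4 comparisons on both scales.

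Of 12 HNF4 alpha targets, 7, 8, 7 and 8 were called lower and 1 higher in each comparison, with medians of -0.61, -0.44, -0.69 and -0.75, but 1, 2, 1 and 4 lower and 4, 2, 2 and 2 higher on the hepatocyte marker scale. Ttr, the thyroxine carrier, fell in all 4, at -0.83 ± 0.19, -0.58 ± 0.19, -0.75 ± 0.22 and -1.16 ± 0.22 (SE), as did Mttp, which loads lipoproteins, at -0.75 ± 0.15, -1.03 ± 0.15, -0.81 ± 0.12 and -1.08 ± 0.12, and both kept negative values on the hepatocyte marker scale. Of 6 partners of P450 electron transfer, which include Cyb5a and Cyb5r3, 3, 2, 4 and 5 were called lower and 0, 1, 0 and 0 higher, against 0, 0, 0 and 1 lower and 3, 4, 1 and 1 higher on the hepatocyte marker scale, and the TMM medians were -0.40, -0.19, -0.61 and -0.61.

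Of 40 other nuclear receptors, 27 were tested in females and 26 in males, and 5, 9, 6 and 9 were called lower and 2, 1, 3 and 1 higher, which on the hepatocyte marker scale became 1, 3, 2 and 0 lower and 14, 11, 9 and 11 higher, and whose TMM medians were -0.10, 0.07, -0.25 and -0.22. Nr3c1, the glucocorticoid receptor, was called lower in all 4 at -0.47 ± 0.17, -0.80 ± 0.17, -0.52 ± 0.15 and -0.61 ± 0.15 (SE), but lay between -0.23 and 0.25 on the hepatocyte marker scale. Pparg, the adipogenic PPAR, was called higher in WT females at 0.96 ± 0.17, Cyp2b-null females at 0.54 ± 0.16 and WT males at 0.69 ± 0.23, and on the hepatocyte marker scale in all 4. The LXR beta gene Nr1h2 and the RXR beta gene Rxrb were called in no diet comparison, but Nr1h2 in all 4 on the hepatocyte marker scale. Of 16 coregulators, 1, 2, 0 and 1 were called lower and 1, 1, 0 and 2 higher, and Ppargc1a was called lower in WT females at -0.74 ± 0.25. On the hepatocyte marker scale none was called lower and 14, 5, 7 and 11 higher, the TMM medians being 0.02, -0.33, -0.06 and -0.01. Among the cell type markers, 6 of 7 macrophage and 5 to 6 of 7 stellate cell markers were called higher in each diet comparison, 2 to 3 of 5 cholangiocyte markers likewise, and none of these lower. Of 5 endothelial markers, 2, 2, 1 and 0 were called lower and 0, 0, 1 and 3 higher, and the 1 lymphocyte marker tested was not called.

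**Figure D5:**
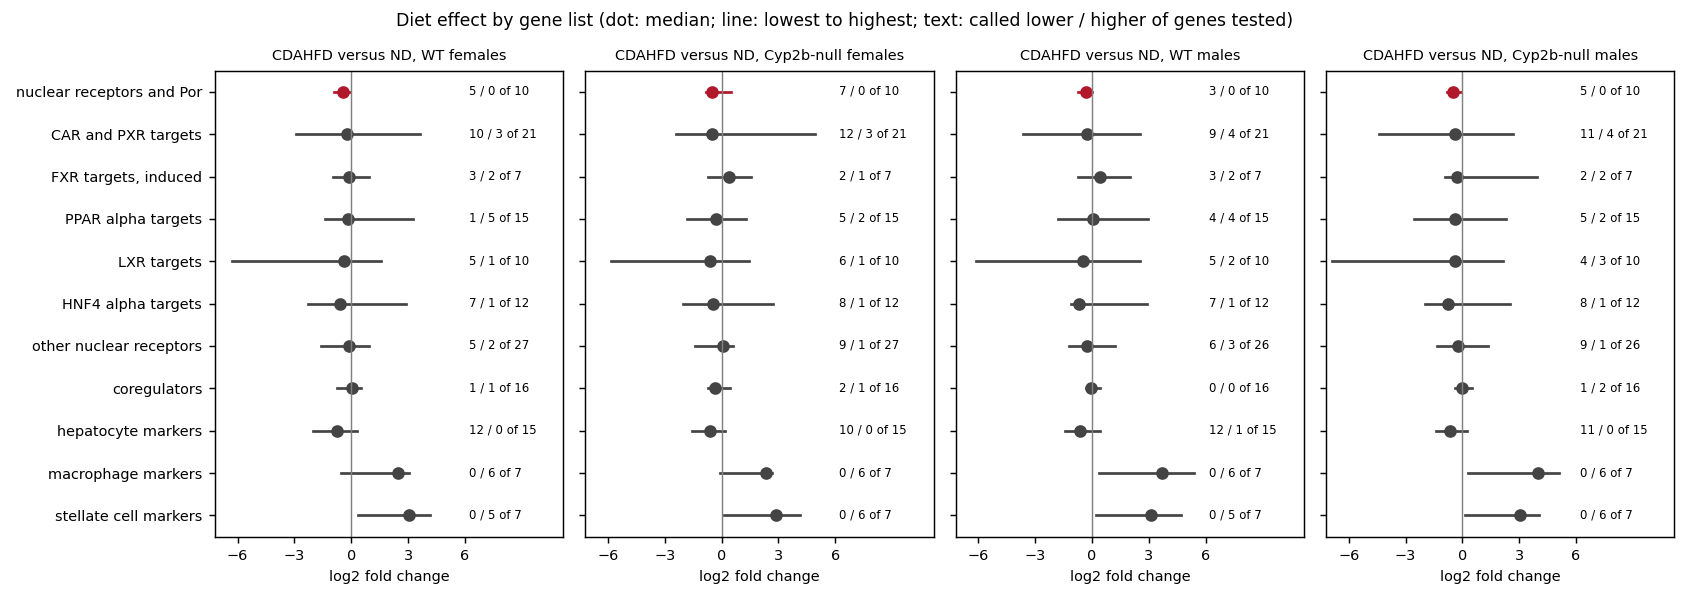
Median (dot) and range from lowest to highest (line) of the log2 fold change on CDAHFD versus ND over the tested genes of each list, in 4 comparisons; the text gives genes called lower, then higher, of those tested. The 10 genes (top) have medians from -0.50 to -0.33, all of which lie above 0 on the hepatocyte marker scale, and macrophage and stellate cell markers lie furthest to the right.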

How the data were processed

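Per the labels, liver total RNA was extracted with TRIzol and made into libraries with the NEB Next Ultra RNA kit. The authors trimmed reads with Trimmomatic, aligned them to GRCm38.p6 with GSNAP and counted them per gene with featureCounts, and deposited raw counts in 1 table per sex. Versions and the strand setting are not given in the sources used here. Counts were analysed here in R 4.3.3 with edgeR 4.0.16 (quasi-likelihood test, TMM factors, filterByExpr at 10 counts) on the 4 groups of each sex and, for sex, on all 8 groups, with Benjamini-Hochberg adjustment over all genes. The SE of an edgeR log2 fold change was its absolute value divided by the square root of the F statistic, and so restates the test. DESeq2 1.42.0 was an alternative. CPM came from 1 TMM scaling over 32 libraries. Lengths came from GENCODE vM21. The fit was tested on simulated data. Genes were named by a rule (the 10 genes, their listed targets and partners, and the 3 genes most alike by rank). The genes and lists were chosen with earlier results of these data known. The result for 1 gene of the lists is not reported here.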

Additional observations from a re-analysis of the deposited data

Results flagged for a closer look

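In 4 of 80 sets of 4 libraries (10 genes in 8 groups), 1 library stood apart from the other 3 by more than the critical value of Dixon's test, which chance alone gives in about 1 set of 20. ND-fed WT female replicate 1 had 118.9 CPM of Nr1i3, the others 142.4 to 146.2 (0.863 of the range). ND-fed WT female replicate 3 had 57.6 CPM of Nr5a2, the others 75.0 to 77.5 (0.872). ND-fed WT male replicate 4 had 109.8 CPM of Nr5a2, the others 80.2 to 84.8 (0.844). CDAHFD-fed Cyp2b-null male replicate 1 had 135.6 CPM of Nr1h3, the others 114.8 to 116.9 (0.900).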

How the results depend on the processing

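The counts of the 10 genes called in the diet comparisons (5 in WT females, 7 in Cyp2b-null females, 3 in WT males, 5 in Cyp2b-null males, all lower) moved with the scaling. On library size only they were 0, 3 (1 higher), 3 (2 higher, which turned the direction) and 1, and on the hepatocyte marker scale 4, 2, 4 and 2, all higher. The sex counts (3 on ND, 2 on CDAHFD) were 5 and 1 on the hepatocyte marker scale, and the CDAHFD count was 1 on library size only, without the low-count filter and in a fit of only the groups compared. Without the low-count filter, 1 gene was called in each of 4 comparisons that had called 0: Nr0b2 between genotypes in ND-fed females, Nr0b2 and Por in the differences between diet effects given above. In WT females Nr5a2 lost its diet call there (adjusted p = 0.0598). The cause was not tested. That fit of only the groups compared was not run for the difference in diet effect between genotypes, which needs all 4 groups. On the hepatocyte marker scale the log2 fold changes that turned and were called on either scale were, in WT females, 0.15 for Nr1i2, 0.67 for Rxra, 0.53 for Nr1h4, 0.63 for Ppara, 0.15 for Hnf4a, 0.62 for Nr1h3 and 0.31 for Nr5a2. In Cyp2b-null females they were 0.038 for Nr1i2, 0.020 for Nr1i3, 0.15 for Nr1h4 and 0.038 for Por. In WT males they were 0.50 for Ppara, 0.52 for Nr1h3 (0.34 on library size only) and 0.059 for Nr5a2, and in Cyp2b-null males 0.085 for Nr1i2, 0.49 for Rxra, 0.17 for Ppara, 0.22 for Hnf4a, 0.092 for Nr5a2 and 0.57 for Por. Leaving out 1 library gave 1 to 5 genes called in WT females (1 without ND-fed replicate 2), 3 to 7 in Cyp2b-null females (3 without ND-fed replicate 2), 3 to 5 in WT males (5 without CDAHFD-fed replicate 4), 4 to 6 in Cyp2b-null males, 3 to 4 for sex on ND, and 0 to 3 for sex on CDAHFD (0 without female or male replicate 2). The genotype counts and the differences between diet effects in genotypes were 0 to 0. Replicate numbers did not pair the samples: same-numbered libraries had a median r of 0.017 between deviations, with 5 of 48 over 0.1, and 29 of 96 correlated best with their own number. With the replicate block, 6, 7, 3 and 7 genes were called in the diet comparisons, 3 and 2 for sex, and 0 elsewhere; Nr1i3 in WT females and Nr1i3 and Nr0b2 in Cyp2b-null males were gained (adjusted p = 0.0422, 0.0454 and 0.0474). Without the 2 libraries that the study left out of its heat maps, 5, 7, 3 and 6 were called in the diet comparisons and 4 and 3 for sex, Nr0b2 being gained in Cyp2b-null males (adjusted p = 0.0334) and for sex on ND (0.0456), and Nr1h3 for sex on CDAHFD (0.0419). At these depths 3 counts were worth 0.250 to 1.15 CPM, and the lowest CPM of the 10 genes was 6.25, for Nr0b2. An effect of depth on the calls was not tested.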
